A study of Mus musculus with 7 samples.

Results

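The genes described here are 7 genes of antigen presentation in the mouse major histocompatibility complex (MHC): the class I genes B2m, H2-D1 and H2-K1 and the class II genes Cd74, H2-Aa, H2-Ab1 and H2-Eb1. They were chosen by symbol. Of the 7, 6 had a row among the 11753 genes of the table of experiment (ii), where Cd74 was not analysed here, and all 7 had rows in the first and second libraries of experiment (i), among 12145 and 8868 genes. Single cells were sorted from mammary tumours of PyMT mice, which carry the polyoma middle T oncogene, and from blood as circulating tumour cells, and were sequenced by CEL-seq, in a study of how epithelial and mesenchymal states relate to metastasis. Experiment (i) held E-cadherin (Ecad) positive bulk tumour cells in 3 libraries of 96 wells. Experiment (ii) held 4 libraries, each with 24 wells of Ecad-positive (TEpos) and Ecad-negative (TEneg) solid tumour cells and of Ecad-negative cells from blood (BEneg), while 24 wells of Ecad-positive cells from blood (BEpos) were in library 1 alone. All groups carry the PyMT transgene. Its promoter, the strain and the age of the mice are not stated in the labels, and neither is any tie of a library to an animal; the p-values therefore rest on the variation among these 4 libraries, which could be technical.

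MHC class I molecules present peptides from inside the cell to CD8 T cells on nearly all nucleated cells. Each is a heavy chain, such as those encoded by H2-D1 and H2-K1, paired with beta-2-microglobulin, the product of B2m. MHC class II molecules present peptides from outside the cell to CD4 T cells and are found mainly on B cells, macrophages and dendritic cells; H2-Aa and H2-Ab1 encode the chains of I-A, H2-Eb1 encodes the beta chain of I-E, and Cd74 encodes the invariant chain that keeps their groove closed until they reach the endosome.

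Wells with at least 500 transcripts were used, which kept 71 TEpos, 69 TEneg, 60 BEneg and 20 BEpos wells, 220 of 312, with a median of 2064, 1603, 819 and 3803 transcripts per well. The library sums held 27416 to 71894 transcripts for TEpos, 17189 to 109892 for TEneg, 11172 to 25379 for BEneg and 75125 for BEpos. In TEneg library 2 a single well held 61227 of the 109892 transcripts and 172 of the 370 transcripts of B2m, H2-D1 and H2-K1. In experiment (i), 95 wells of library 1 (438102 transcripts) and 65 of library 2 (69976 transcripts) were used, and library 3 had 1 well that passed. Levels below are transcripts per 10000 transcripts of a sum. CEL-seq counts a molecule once at its 3′ end, so levels were not divided by gene length. The same 72 of 96 cell barcodes were used in all 4 libraries of experiment (ii).

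The sorted populations were checked against marker genes. The 10 luminal epithelial genes together reached 428.6 to 578.9 per 10000 in the TEpos libraries, 220.8 to 424.4 in TEneg, 50.6 to 103.7 in BEneg and 13.3 in BEpos. In TEneg library 2, the highest of TEneg, the well of 61227 transcripts held 3462 of the 4664 luminal transcripts. The 12 measured pan-leukocyte genes were higher in the wells from blood, with 2.65 to 12.3 per 10000 in TEpos, 3.79 to 9.92 in TEneg, 95.6 to 157.1 in BEneg and 120.3 in BEpos. The 9 measured neutrophil genes reached 456.7 to 1043 per 10000 in BEneg, against 17.7 to 37.9 in TEpos and 9.74 to 41.01 in TEneg. Cdh1, the gene of E-cadherin, had 95 transcripts in the TEpos and 98 in the TEneg wells, 26 in the BEneg wells and 1 in the 20 BEpos wells, where Epcam had 3. The labels negative for Ecad were not matched by a called difference in Cdh1 RNA. Cdh1 had a log2 difference of 0.01 between TEneg and TEpos (SE 0.32, edgeR adjusted p = 0.995), −0.25 between BEneg and TEneg (SE 0.45, edgeR adjusted p = 0.706) and −0.24 between BEneg and TEpos (SE 0.44, edgeR adjusted p = 0.702). These levels go against an epithelial label for most RNA of the wells sorted from blood, which are called by their sort labels below. Ptprc, the leukocyte gene CD45, had 1 transcript in BEneg and 0 in the other 3 populations.

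The genes of B2m (chromosome 2, bases 122147686 to 122153083), H2-K1 (chromosome 17, 33996017 to 34000347), H2-Ab1 (chromosome 17, 34257689 to 34269419), H2-Aa (chromosome 17, 34282744 to 34287823), H2-Eb1 (chromosome 17, 34305867 to 34316674) and H2-D1 (chromosome 17, 35262730 to 35267499) were placed from the GENCODE annotation of GRCm38, the assembly that mm10 names. H2-K1 and H2-Aa lie on the minus strand. The promoter stretches of the 3 class I genes and of a class II gene are shown because the class I genes did not share one pattern across populations. RefSeq promoters (GRCm38.p6, from 250 bases before to 50 after the start) matched 5 of the 7 genes, and the first of 2 listed starts was used for H2-K1. Each is written 5′ to 3′ on the strand of its gene. Capitals mark the Y box core CCAAT on either strand, the interferon response element (GAAA, any 2 bases, GAAA) and GGATTCC, a core of the class I enhancer A, also on either strand; none of them overlap here.
B2m, chr2:122147437-122147736: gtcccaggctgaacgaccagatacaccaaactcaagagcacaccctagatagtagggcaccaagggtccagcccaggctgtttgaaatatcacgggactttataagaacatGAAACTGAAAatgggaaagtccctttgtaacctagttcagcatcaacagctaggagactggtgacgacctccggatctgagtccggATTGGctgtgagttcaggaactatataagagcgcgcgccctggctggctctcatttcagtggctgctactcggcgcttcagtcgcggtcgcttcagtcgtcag
H2-D1, chr17:35262844-35263143: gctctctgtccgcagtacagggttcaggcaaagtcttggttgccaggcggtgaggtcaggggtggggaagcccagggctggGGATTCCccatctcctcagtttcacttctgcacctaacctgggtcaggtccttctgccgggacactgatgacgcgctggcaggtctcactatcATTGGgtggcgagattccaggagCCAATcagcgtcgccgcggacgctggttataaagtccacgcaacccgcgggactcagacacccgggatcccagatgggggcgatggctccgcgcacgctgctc
H2-K1, chr17:34000298-34000597: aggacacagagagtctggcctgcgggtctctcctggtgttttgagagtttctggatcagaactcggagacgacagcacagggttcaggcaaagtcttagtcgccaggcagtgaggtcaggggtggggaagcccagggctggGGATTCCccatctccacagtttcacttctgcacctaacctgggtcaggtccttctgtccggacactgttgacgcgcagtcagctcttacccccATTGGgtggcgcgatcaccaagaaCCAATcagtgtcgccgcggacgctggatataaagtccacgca
H2-Aa, chr17:34287774-34288073: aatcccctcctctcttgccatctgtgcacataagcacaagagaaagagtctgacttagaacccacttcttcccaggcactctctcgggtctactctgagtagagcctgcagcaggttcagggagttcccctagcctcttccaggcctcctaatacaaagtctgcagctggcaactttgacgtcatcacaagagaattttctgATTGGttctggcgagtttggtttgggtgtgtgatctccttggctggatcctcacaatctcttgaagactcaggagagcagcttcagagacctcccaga
GGATTCC was in the promoters of H2-D1 and H2-K1, and in 1245 of 32851 mouse promoters of the same length (3.79%). The interferon response element, as the exact pattern given above, was in that of B2m, from 139 to 130 bases before the start, and in 3.44% of promoters. Looser forms of this element were not searched for, so the promoters without a mark can still hold one. CCAAT was in all 4 shown, but also in 37.4% of all promoters. Counted from the start, H2-D1 had CCAAT at −76 to −72 and −53 to −49 and GGATTCC at −169 to −163. From the start used for H2-K1, CCAAT was at −16 to −12 and 9 to 13 and GGATTCC at −109 to −103. The stretches of these genes are thus offset against each other. The H2-D1 and H2-K1 promoters matched at 206 of 227 aligned bases (90.75%), the longest alignment of any pair of the 5. These matches describe the letters only, and binding was not measured.

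B2m was the most abundant member in every population and library of experiment (ii). In TEpos it had 21.8, 19.7, 26.3 and 30.1 transcripts per 10000 in libraries 1 to 4, and in TEneg 19.04, 15.03, 28.5 and 34.7. In BEneg it had 35.6, 36.1, 45.3 and 48.98 per 10000, above every tumour sum. In all 3 populations libraries 3 and 4 were above libraries 1 and 2, and BEneg was the highest of these 3 populations within each library. BEpos had 397 B2m transcripts, 52.8 per 10000 (95% exact Poisson interval 47.8 to 58.3, counting error only).

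H2-D1, a classical class I heavy chain gene, had a like order of populations. It had 8.34, 7.01, 7.77 and 10.7 per 10000 in the TEpos libraries and 7.84, 7.75, 7.17 and 11.1 in TEneg. In BEneg it had 18.1, 19.9, 12.7 and 21.6 per 10000, so that even library 3, the lowest, lay above every tumour sum. For B2m and H2-D1 alike, the share of all genes that separate in this way was not computed. BEpos had 128 transcripts, 17.1 per 10000 (14.2 to 20.3), inside the range of the BEneg libraries.

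H2-K1, the other heavy chain gene, did not have that order. It had 14.4, 19.05, 9.11 and 13.97 per 10000 in the TEpos libraries, 9.73, 10.9, 10.5 and 9.35 in TEneg, and 8.19, 11.1, 5.91 and 9.89 in BEneg. The ranges of the 3 populations overlap, and within each library BEneg lay below TEpos in 4 of 4. BEpos, with 206 transcripts and 27.5 per 10000 (23.8 to 31.5), was above all 12 sums of the other populations.

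**Figure D1:**
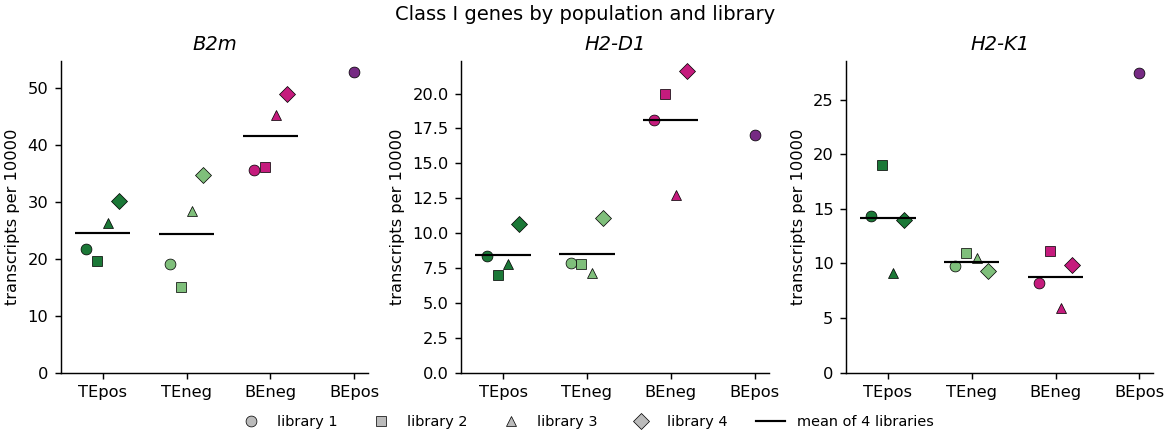
Transcripts per 10000 of B2m, H2-D1 and H2-K1 (linear axes from 0), 1 point per library (symbols) in each sorted population of experiment (ii); lines are means of 4 libraries, and BEpos has 1 library. BEneg lies above both tumour populations for B2m (35.6 to 48.98) and H2-D1 (12.7 to 21.6) but not for H2-K1 (5.91 to 11.1).

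The first comparison set TEneg against TEpos. None of the 3 class I genes passed the test (edgeR quasi-likelihood test with library as a block, Benjamini-Hochberg adjusted p over 490 genes), in a comparison that called 31 genes (20 with no replicate block), 6.33% of those tested (4.69% higher, 1.63% lower). Means were 24.5 ± 4.68 (SD, n = 4) per 10000 for B2m in TEpos and 24.3 ± 8.94 in TEneg, and 8.45 ± 1.57 and 8.47 ± 1.79 for H2-D1. The fitted log2 differences were 0.04 (SE 0.16, edgeR adjusted p = 0.938) for B2m and 0.13 (SE 0.23, edgeR adjusted p = 0.788) for H2-D1. Without the TEneg well of 61227 transcripts they were 0.27 (edgeR adjusted p = 0.327) and 0.13 (edgeR adjusted p = 0.757). For H2-K1 the means were 14.1 ± 4.06 in TEpos and 10.1 ± 0.721 in TEneg, with a log2 difference of −0.37 (SE 0.21, edgeR adjusted p = 0.363) and a 95% interval from −0.80 to 0.06. The interval of B2m ran from −0.30 to 0.37 and that of H2-D1 from −0.34 to 0.60. At an unadjusted p under 0.05 the count was also 0 of 3, as it was with DESeq2 and with limma.

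The other comparisons asked how Ecad-negative cells from blood differed from each tumour population. B2m and H2-D1 were higher in BEneg and H2-K1 did not pass. Against TEneg, 2 of the 3 class I genes were called, both higher, where 23.9% of the 490 genes tested were called higher, 17.1% lower and 41% in either direction. B2m had a log2 difference of 1.05 (SE 0.17, edgeR adjusted p = 1.05e-05) and H2-D1 of 1.33 (SE 0.23, edgeR adjusted p = 2.75e-05), each higher in 4 of 4 libraries. Without the TEneg well of 61227 transcripts these differences were 0.88 and 1.40, both still called. H2-K1 had a log2 difference of 0.01 (SE 0.25, edgeR adjusted p = 0.989; 95% interval −0.50 to 0.51). Against TEpos, the same 2 genes were called higher, where 27.1% of genes were called higher, 21% lower and 48.2% in either direction. B2m differed by 1.09 (SE 0.16, edgeR adjusted p = 3.03e-06) and H2-D1 by 1.46 (SE 0.22, edgeR adjusted p = 3.99e-06), again in 4 of 4 libraries. H2-K1 differed by −0.36 (SE 0.23, edgeR adjusted p = 0.215; 95% interval −0.84 to 0.12). Both comparisons use the BEneg libraries, so they are not independent.

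Whether H2-K1 was called against TEpos depended on the settings, while B2m and H2-D1 kept their direction under scaling by total transcripts. With total transcripts as the only scaling, the median gene moved from −0.05 to −0.49 on the log2 scale against TEneg and from −0.08 to −0.48 against TEpos. The calls then went from 117 higher and 84 lower to 99 and 187, and from 133 and 103 to 110 and 188. Under that scaling B2m was 0.61 and 0.70 and H2-D1 0.88 and 1.06 higher in BEneg than in TEneg and TEpos, which is 1.11, 1.17, 1.37 and 1.53 above the median gene. H2-K1 was then called lower in BEneg than in TEpos by −0.78 (edgeR adjusted p = 0.00622), but lay −0.30 from the median gene, against −0.29 with TMM scaling; against TEneg it was not called (−0.45, edgeR adjusted p = 0.122). H2-K1 was also called lower than in TEpos with the means of cells in place of sums (−0.62, limma adjusted p = 0.0282) and with no filter on low counts (−0.88, edgeR adjusted p = 0.0376). With no filter, B2m was no longer called against TEpos (0.55, edgeR adjusted p = 0.0811). H2-D1 was called in both blood comparisons under all 14 alternatives, with a highest adjusted p of 0.0314.

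The leukocyte and neutrophil genes given above moved with B2m and H2-D1. All 9 tested pan-leukocyte genes (12 measured) and all 5 tested neutrophil genes (9 measured) were called higher in BEneg than in each tumour population. So were all 5 tested monocyte and macrophage genes (12 measured). Some could pass the filter on low counts only through BEneg, so their calls were close to fixed in advance. Ccr2 had 0, 0 and 60 transcripts in TEpos, TEneg and BEneg. Untested genes of the monocyte and macrophage list went both ways. In the same order, C1qa had 5, 9 and 1, C1qb 2, 9 and 1, C1qc 2, 5 and 0 and Mrc1 2, 0 and 0. Csf1r had 8, 7 and 40, Cd68 4, 2 and 11 and Cd14 20, 25 and 34. Of 8 tested luminal genes, 7 were called lower, with Cdh1 the exception. The part of all these genes in the difference of B2m and H2-D1 was not tested. Without the tumour wells whose pan-leukocyte share reached that of the lowest BEneg well, B2m was 1.27 and 1.09 and H2-D1 1.39 and 1.67 higher in BEneg than in TEneg and TEpos on the log2 scale.

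Within wells, H2-K1 and H2-D1 were detected at different rates. H2-K1 had a transcript in 61 of 71 TEpos and 56 of 69 TEneg wells but in 27 of 60 BEneg wells, and its median level over BEneg wells was 0. H2-D1 was in 49 of 71, 46 of 69 and 47 of 60 wells, with medians of 6.37, 6.25 and 14.7 per 10000. B2m was in 63 of 71, 62 of 69 and 57 of 60, with medians of 17.6, 22.3 and 32.7. BEneg wells were the shallowest, so each well was also thinned to 500 transcripts by exact expectation. H2-K1 was then expected in 48.3% ± 12.96 (SD, n = 4) of TEpos, 39.2% ± 3.005 of TEneg and 29.9% ± 3.49 of BEneg wells. The BEneg libraries (26.7% to 34.7%) lay below the TEneg libraries (36.1% to 42.9%) but overlapped TEpos (31.5% to 62.9%). Thinning keeps each gene's share of all transcripts. On that scale the median gene was also lower in BEneg than in TEneg, by −0.49 on the log2 scale, and H2-K1 by −0.45. How many genes would separate in this way was not computed. H2-D1 was expected in 30.4% ± 6.35, 34.4% ± 11.1 and 56.5% ± 7.99 of the wells of the 3 populations and B2m in 60.1% ± 6.001, 66.5% ± 13.1 and 84.1% ± 5.42. All 20 BEpos wells held B2m and H2-K1, and 18 held H2-D1.

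The ratio of H2-K1 to H2-D1 transcripts separated BEneg from the tumour sums. It was 1.72, 2.72, 1.17 and 1.31 in TEpos libraries 1 to 4 and 1.24, 1.41, 1.46 and 0.841 in TEneg. It was 0.453, 0.558, 0.465 and 0.458 in BEneg, with no overlap with either. How often ratios of other gene pairs separate in this way was not computed. BEpos had 1.61, and the tumour wells of experiment (i), labelled Ecad-positive like TEpos, had 0.805 in library 1 and 0.643 in library 2, below all 4 TEpos values and above all 4 BEneg values. No test was made of this ratio, because the genes were chosen with earlier results known. Of the 50-base windows in the last 300 bases of their transcripts, 13.55% of H2-D1 and 9.54% of H2-K1 windows were shared with another gene, H2-K1 and H2-D1 among them, and 0 windows of B2m, H2-Aa, H2-Ab1 and H2-Eb1. Cd74 was not checked. How reads were counted is not stated in the labels, so reads shared by both genes could have been split or lost, and the ratio is uncertain to that extent. MHC genes also differ between strains, and the strain of the mice is not stated in the labels.

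**Figure D2:**
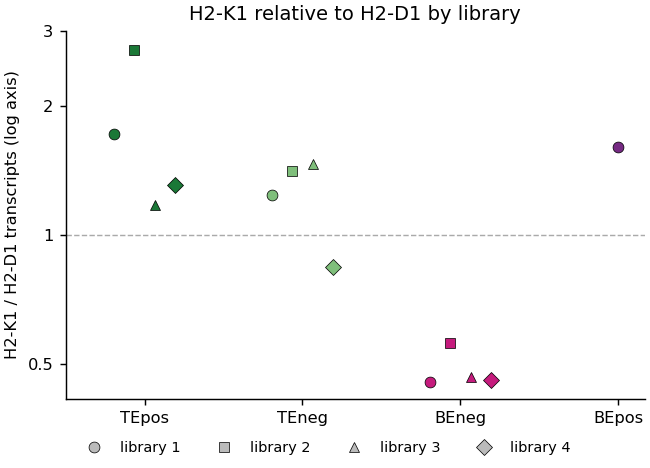
Ratio of H2-K1 to H2-D1 transcripts (log axis) in each library (symbols) of the sorted populations; the dashed line marks equal counts. The 4 BEneg libraries lie from 0.453 to 0.558, below every TEpos and TEneg library (0.841 to 2.72), and BEpos is at 1.61.

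Summed over the 3 genes, class I transcripts came to 47.05 ± 5.25 per 10000 (SD, n = 4) in TEpos, 42.9 ± 9.76 in TEneg and 68.4 ± 8.36 in BEneg. The BEneg libraries ran from 61.9 to 80.5 and did not overlap the tumour libraries, which ran from 33.7 to 55.2. As for the single genes, the share of all genes that separate in this way was not computed. BEpos had 97.4 per 10000. Experiment (i) gave 32.6 in library 1 and 21.4 in library 2, both below every sum of experiment (ii). In experiment (i), B2m was at 16.3 (15.1 to 17.6) per 10000 in library 1 and 10.8 (8.51 to 13.5) in library 2. H2-D1 was at 9.03 and 6.46 and H2-K1 at 7.27 and 4.16.

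Class II genes were sparse in the tumour populations and in BEneg. None of the 3 class II rows passed the filter on low counts, so they were not tested. H2-Aa had 13, 5, 0 and 3 transcripts in TEpos libraries 1 to 4, 10, 13, 5 and 1 in TEneg, and 12, 1, 6 and 1 in BEneg. H2-Ab1 had 9, 3, 2 and 4, then 4, 7, 1 and 0, then 6, 0, 3 and 0 in the same order. H2-Eb1 had 8, 5, 0 and 0, then 2, 3, 2 and 1, then 3, 0, 5 and 0. Summed, class II came to 2.52 ± 1.86 per 10000 (SD, n = 4) in TEpos, 2.99 ± 1.62 in TEneg and 5.44 ± 5.70 in BEneg. The ranges overlap, and the spread between the BEneg libraries, from 0.395 to 11.9, had an SD about as large as their mean. A count of 0 in a sum allows up to about 3 transcripts, taken as an upper 95% Poisson limit alone, without a lower limit.

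The class II transcripts of BEneg came from few wells. A well of library 3 held 13 class II transcripts and a well of library 1 held 10, together 23 of the 37 in 60 wells, and no other BEneg well held more than 2. Both had monocyte and macrophage genes (20 and 21 transcripts), few neutrophil genes (4 and 5) and 0 transcripts of the B cell genes Cd79a, Cd79b, Ms4a1 and Bank1. These counts stand among 965 and 1371 transcripts, and both wells had 0 transcripts of C1qa, C1qb and C1qc. Monocyte and macrophage genes were not particular to these wells, since that list came to 119.6 to 188.8 per 10000 in the BEneg libraries. The next wells, with 2 class II transcripts each, held 94 and 339 neutrophil transcripts and 73 and 25 of the monocyte and macrophage list. In the tumour wells of experiment (ii) none held more than 7 class II transcripts. The well with 7, TEpos of library 1, had 12692 transcripts in all, 71 of class I and 1147 of the luminal list. It also held 3 transcripts of the B cell genes, 18 of the pan-leukocyte list and 44 of the neutrophil list.

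Library 1, the library that also held BEpos, had the highest class II level in TEpos, 5.05 per 10000 against 1.70 in libraries 2 to 4 together. TEneg had 4.31 against 2.28, although library 3 reached 4.40. BEneg had 8.59 against 3.33, with library 3 above it. Transcripts of the B cell receptor genes Cd79a and Cd79b followed that library: TEpos had 7, TEneg 8 and BEneg 5 in library 1, against 1, 0 and 0 in libraries 2 to 4. Without library 1, mean class II levels were 1.68, 2.56 and 4.39 per 10000 in TEpos, TEneg and BEneg. The part of BEpos wells in these values was not tested.

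BEpos was the population of experiment (ii) with abundant class II transcripts. H2-Aa had 148 transcripts (19.7 per 10000, 95% exact Poisson interval 16.7 to 23.2), H2-Ab1 92 (12.3, 9.89 to 15.04) and H2-Eb1 93 (12.4, 10.04 to 15.2). Summed, they came to 44.4 per 10000 (39.8 to 49.5), above the highest sum of the other populations, 11.9 (6.44 to 19.8). With 1 library there is no test of this difference, and the intervals cover counting error only. The list of 12 other measured class II and processing genes came to 14.9 per 10000 in BEpos, 6.73 to 13.1 in BEneg, 5.26 to 8.36 in TEneg and 5.31 to 9.12 in TEpos. From that list 5 genes were picked after their values were seen: H2-DMa and H2-DMb1, whose product loads peptides onto class II, had 13 and 19 transcripts, H2-Oa and H2-Ob, whose product holds H2-DM back, had 8 and 21, and H2-Eb2 had 5. The same 5 genes had 0, 3, 1, 2 and 0 transcripts in TEpos, 1, 1, 0, 1 and 0 in TEneg, and 9, 4, 1, 0 and 0 in BEneg. Other genes of the list did not have their peak in BEpos: Ctsl, a cathepsin gene, had 67 transcripts in TEpos and 70 in TEneg, with 4 for BEneg and 3 for BEpos, and Ifi30, the gene of a lysosomal thiol reductase, had 33, 18, 40 and 32.

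**Figure D3:**
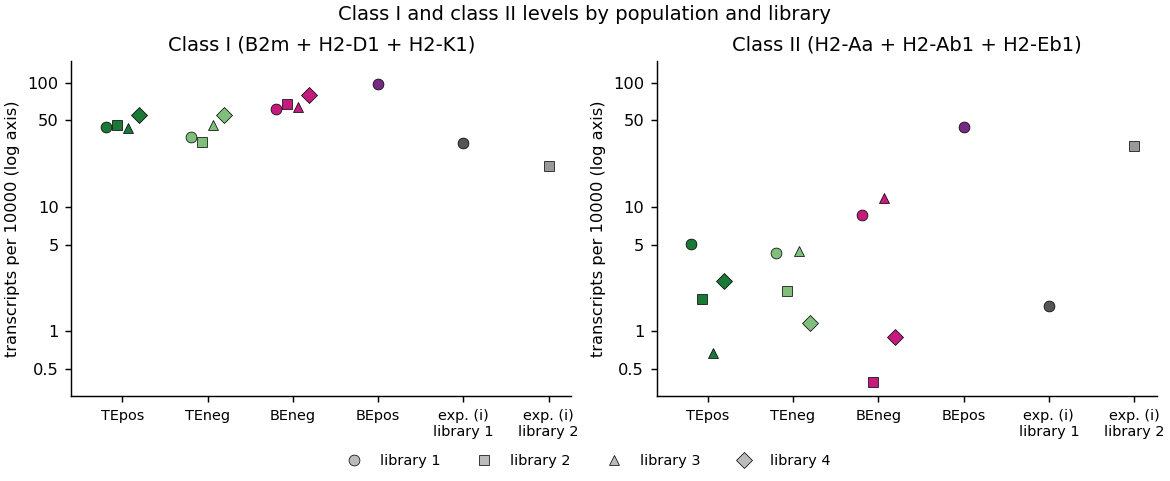
Class I and class II transcripts per 10000 (log axes), 1 point per library (symbols), in the populations of experiment (ii) and in the libraries of experiment (i), which are separate from those of experiment (ii) despite sharing symbols. Class II is at 44.4 in BEpos and 31.2 in library 2 of experiment (i), and at 11.9 or less elsewhere.

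The BEpos wells fell apart into wells with and without class II. The 10 wells with at least 10 class II transcripts held 11 to 73 each, 97.6% of the total, and the other 10 held 0 to 2. Cd79a and Cd79b, which encode the signalling chains of the B cell receptor, together had 4 to 36 transcripts in each of the first 10 wells and 0 or 1 in each of the others. The other 10 wells all held transcripts of Cd3d, Cd3e or Cd3g, chains of the T cell receptor complex (1 to 19), while 9 of the first 10 held 1 to 7. Over the 20 wells the Spearman correlation of class II with Cd79 levels was 0.83, a description of wells of 1 library. Wells with at least 2 Cd79 transcripts had 84.1 class II transcripts per 10000 and the rest 2.20. Class I went the other way by a small margin, with 89.7 and 105.5 per 10000, and its rank correlation with class II was −0.28. Neutrophil transcripts were present in all 20 wells, from 2 to 369. The monocyte and macrophage list had 1 to 40 transcripts in the first 10 wells (median 10.1) and 3 to 20 in the others (median 8.1). The wells with 73, 58 and 44 class II transcripts held 37, 40 and 37 of that list, while the well with 57 held 1. The part of either cell type in the class II transcripts was not tested.

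The first tumour library of experiment (i) was poor in class II. Among 95 wells it had 33 transcripts of H2-Aa, 19 of H2-Ab1, 19 of H2-Eb1 and 8 of Cd74, so 1.61 per 10000 for the 3 chains and 0.184 for Cd74. A single well gave 43 of the chain transcripts and 2 of Cd74. That well held 57 transcripts of C1qa, C1qb and C1qc, complement genes typical of tissue macrophages, and 23 luminal transcripts among 2477. A second well had 11 and 5, with 11 transcripts of the B cell genes named above and 347 of the luminal list among 10751. No other well had more than 2 class II transcripts.

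The second tumour library was different: class II exceeded class I. H2-Aa had 78 transcripts (11.1 per 10000, 8.78 to 13.9), H2-Ab1 76 (10.8, 8.51 to 13.5), H2-Eb1 65 (9.32, 7.20 to 11.9) and Cd74 61 (8.68, 6.64 to 11.2), and the 4 intervals overlap. The 3 chains came to 31.2 per 10000 (27.2 to 35.6) against 21.4 for class I, a ratio of class I to class II of 0.686. In the other 14 sums the ratio ran from 2.19 in BEpos to 170.1 in BEneg library 2, where class II was 1 transcript.

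These transcripts were concentrated in wells with C1q genes. The 16 of 65 wells with a C1q transcript held 206 of the 218 class II chain transcripts and 56 of the 61 Cd74 transcripts. Their class II level was 110.3 per 10000, against 2.35 in the 49 wells without C1q. Cd74 was at 29.8 and 0.979, and H2-Aa, H2-Ab1 and H2-Eb1 were at 38.8, 38.8 and 32.7 against 0.978, 0.586 and 0.783. Class I was at 24.2 and 20.4 per 10000, with B2m at 12.9 and 10.02. The C1q wells had 139.2 per 10000 of the monocyte and macrophage list, of which the C1q genes are members, against 20.5. They had 90.2 of the luminal list against 188.0. Of the 16, 11 held class II or Cd74 transcripts and 8 held at least 10. Of the 4 B cell genes, 0 had a row in this library, so they were not checked there. The listed dendritic cell genes came to 20.6 per 10000 in this library (6 genes with a row) and 9.28 in library 1 (7 genes). They were not split by C1q, so their part in the class II wells was not tested.

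**Figure D4:**
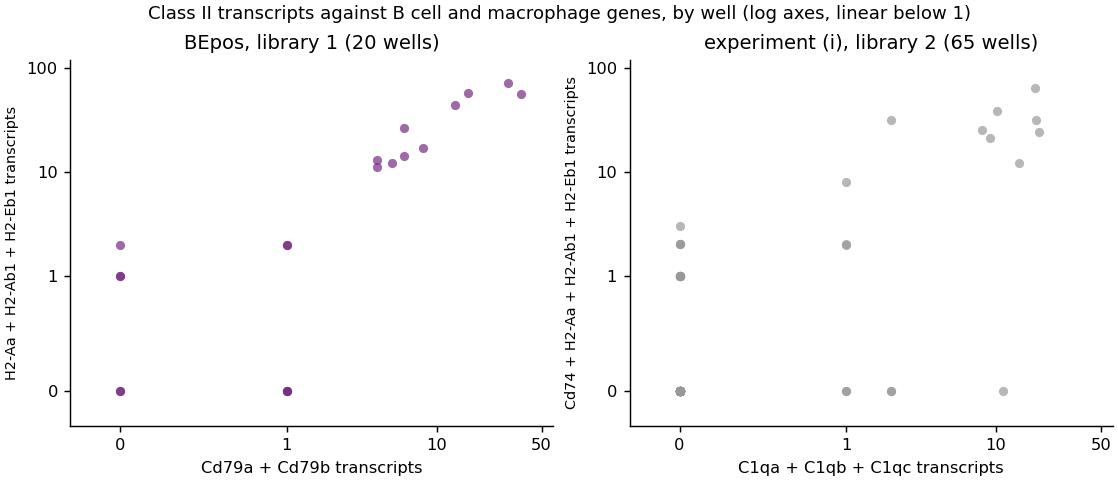
Class II transcripts per well against Cd79a and Cd79b transcripts in BEpos (left) and, with Cd74 included, against C1qa, C1qb and C1qc transcripts in library 2 of experiment (i) (right); axes are logarithmic and linear below 1, and 1 point is 1 well. The 10 BEpos wells with 11 or more class II transcripts have 4 to 36 Cd79 transcripts, and the 8 wells on the right with at least 10 all have C1q transcripts.

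Cd74 was set beside other genes over wells of experiment (i). Its Spearman correlation with the summed 3 chains was 0.31 over the 95 wells of library 1 and 0.63 over the 65 wells of library 2. In library 2, among 884 genes detected in at least 10 wells, Cd74 was most like H2-Ab1 (Spearman 0.78), C1qa (0.75), H2-Eb1 (0.74), Selplg (0.59) and C1qb (0.58). Tgfbi followed at 0.57, H2-Aa at 0.56, and Ctss, which encodes the protease cathepsin S that cuts the invariant chain, at 0.55. Its correlations with class I were 0.11 for H2-D1, 0.06 for H2-K1 and −0.03 for B2m. The wells share 1 library and differ in depth, which raises or lowers many genes together. For B2m the likeness was taken over the 12 sums of TEpos, TEneg and BEneg. The most alike of 490 genes were Hmgb2 (0.94), Retnlg (0.94), Actr2 (0.92), Lyz2 (0.90) and Selplg (0.90). Retnlg is a neutrophil gene and Lyz2 a gene of myeloid cells. The BEneg sums were all the highest for B2m, so genes high in BEneg rank as alike. The ranking is thus no separate support for the difference tested above. H2-D1 ranked 18 with 0.82 and H2-K1 ranked 253 with −0.11.

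Counted per cell in experiment (ii), class I was detected in nearly every well and class II was not. A class I transcript was found in 69 of 71 TEpos, 69 of 69 TEneg, 59 of 60 BEneg and 20 of 20 BEpos wells. A class II transcript was found in 30 of 71 TEpos (exact Clopper-Pearson interval 30.6% to 54.6%), 31 of 69 TEneg (32.9% to 57.4%), 14 of 60 BEneg (13.4% to 36.04%) and 15 of 20 BEpos wells (50.9% to 91.3%). These intervals take pooled wells as independent and leave out the spread between libraries, so they do not compare populations. By library the percentage ran from 12.5% to 66.7% in TEpos, 14.3% to 59.1% in TEneg and 5.56% to 55.6% in BEneg. Thinning to 500 transcripts left out no used well. Class II was then expected in 11.9% ± 6.43 (SD, n = 4) of TEpos wells, 15.1% ± 8.22 of TEneg and 12.4% ± 12.9 of BEneg, with no order beyond the spread between libraries, and in 51.95% of BEpos wells. Class I was expected in 81.96% ± 8.79, 85.7% ± 6.04 and 93.5% ± 2.44 of the first 3 and in 98.6% of BEpos wells. In experiment (i), 94 of 95 wells of library 1 and 48 of 65 wells of library 2 held a class I transcript, which thinning brought to 72.2% and 56.6%. No well of experiment (ii) had class II without class I. Class II exceeded class I in 0 TEpos, 1 TEneg, 1 BEneg and 4 BEpos wells, and in 1 and 12 wells of libraries 1 and 2 of experiment (i). In that library 2, 5 of the 20 wells with class II had no class I transcript, and 12 wells had neither.

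**Figure D5:**
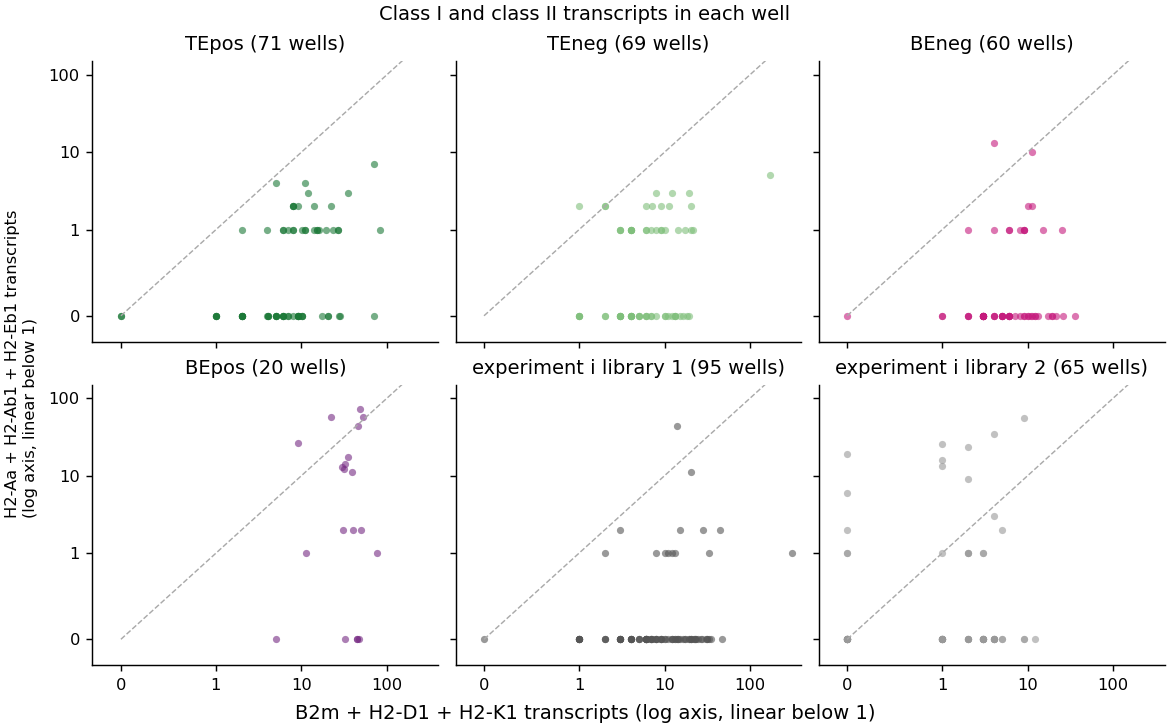
Class II against class I transcripts in each used well, by population (axes logarithmic, linear below 1; dashed line, equal counts; Cd74 left out). Points lie on or below the line in all TEpos and nearly all TEneg and BEneg wells, while 4 BEpos wells and 12 wells of library 2 of experiment (i) lie above it.

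The other genes of the pathways were mostly too sparse to test. Of 14 measured class I chains outside the members, 1 passed the filter and 0 were called. It was H2-T23, which encodes Qa-1, a ligand of natural killer cell receptors, with log2 differences of 0.06 between TEneg and TEpos (edgeR adjusted p = 0.948), 0.78 between BEneg and TEneg (edgeR adjusted p = 0.0938) and 0.84 between BEneg and TEpos (edgeR adjusted p = 0.0522). The unadjusted p was under 0.05 in the last 2 of these, also with DESeq2 but in neither with limma, and adjusted calls were 0 with DESeq2 and limma. Of 13 measured class I processing genes, Calr alone was tested, the gene of calreticulin, a chaperone that helps to load class I molecules. It had 7.29, 9.73, 10.5 and 13.5 transcripts per 10000 in TEneg, 7.12, 8.21, 8.02 and 12.8 in TEpos, and 3.68, 1.58, 4.22 and 4.49 in BEneg. Calr was lower in BEneg by −1.41 (SE 0.32, edgeR adjusted p = 0.000755) against TEneg and by −1.08 (SE 0.32, edgeR adjusted p = 0.00674) against TEpos, the opposite direction from B2m. Calreticulin is also a general chaperone of the endoplasmic reticulum. Of 21 measured interferon signalling genes, Ifitm3 alone was tested, an interferon-induced antiviral gene. It was higher in BEneg by 1.22 (SE 0.24, edgeR adjusted p = 0.000142) against TEneg and by 1.96 (SE 0.25, edgeR adjusted p = 1.64e-07) against TEpos, with 16.9 to 29.9 transcripts per 10000 in BEneg. Between TEneg and TEpos it differed by 0.74 (SE 0.25, edgeR adjusted p = 0.0717). Untested genes of that list went both ways. Ifit3 had 23, 14 and 2 transcripts and Ifit1 17, 18 and 4 in TEpos, TEneg and BEneg. Ifngr1 had 8, 15 and 31 and Gbp2 8, 11 and 12, among 189080, 182534 and 72985 transcripts in all. Of the 12 other class II and processing genes, 0 were tested. The medians of all 490 genes were −0.05 and −0.08 in the blood comparisons.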

How the data were processed

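CEL-seq libraries of sorted single cells were analysed, 7 in all, mapped to populations through the labels and the deposited barcode table. The authors deposited estimated counts of transcripts, unscaled: k distinct molecular barcodes of 256 were turned into 256 ln(256/(256 − k)), with k whole within 3.13e-13. BWA 0.6.2-r126 and mm10 are named in the submitters' processing notes; how reads were counted is not stated there. Spike-ins were left out.

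Wells of at least 500 transcripts were summed per library and population (at least 3 wells) and rounded. TEpos, TEneg and BEneg sums were fitted with edgeR 4.0.16 (quasi-likelihood test, TMM, filterByExpr, library as a block, R 4.3.3), and a Benjamini-Hochberg adjusted p under 0.05 made a call. Libraries pair the populations because the barcode table places them together; within a library, residuals correlated at −0.00092 to 0.226. No 2 libraries were copies (chi-square per degree of freedom 1.74 to 5.64). On simulated counts of the 490 genes, 82.9%, 63.0% and 74.2% of genes with a log2 difference of 1 were recovered in TEneg against TEpos, BEneg against TEneg and BEneg against TEpos. BEpos and experiment (i) have no replicates and carry 95% exact Poisson intervals. Each well was meant to hold 1 cell, and no doublet caller was run. The members and gene lists were chosen with earlier results of these data known. Named are the 7 members, up to 6 genes per pathway list that passed the test, defining markers, and the 5 genes most like Cd74 and B2m by rank correlation. For Cd74 this rule could not be applied to sums, so the wells of a library were used, a choice made after values were seen. H2-T23, which did not pass, Ctsl, Ifi30, Tgfbi, H2-DMa, H2-DMb1, H2-Oa, H2-Ob, H2-Eb2, Ctss, Cdh1, Epcam, the C1q and Cd79 genes beside class II and the lower ranks of the likeness lists were named after their values were seen. So were Ccr2, Csf1r, Cd68, Cd14, Mrc1 and the C1q genes beside the monocyte and macrophage list, and Ifit1, Ifit3, Ifngr1 and Gbp2. Alternatives were scaling by total transcripts, DESeq2 1.42.0, no filter, other well minimums, limma 3.58.1 on log2(value + 1) means of cells, distinct molecular barcodes, no block, and leaving out large wells, leukocyte-like tumour wells or a library. A listed marker gene is not reported here.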

Additional observations from a re-analysis of the deposited data

Results flagged for a closer look

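H2-D1 in TEneg library 4 stood apart from the other 3 libraries: 11.1 transcripts per 10000 against 7.17 to 7.84, a gap of 0.83 of the range of the 4 libraries, just past Dixon's 95% limit. The H2-K1 to H2-D1 ratio of BEneg library 2 was also apart, at 0.558 against 0.453 to 0.465, although it stayed below every tumour library. Chance flags about 1 in 20 groups, and 30 groups of 4 libraries were checked. Library 3 of experiment (i), in which 1 of 96 wells reached 500 transcripts, was used in no comparison. Its wells held 14046 transcripts in all, among them 9 of H2-Aa, H2-Ab1 and H2-Eb1 in 4 wells and 35 of the 3 class I genes in 21 wells.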

How the results depend on the processing

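In all, 14 alternatives were run for each test. All but 16 of the values of B2m, H2-D1 and H2-K1 under them kept their direction and side of the threshold. The 12 of these that changed sign belong to differences that were not called in any setting. B2m between TEneg and TEpos became −0.31 with no filter, −0.17 without the tumour wells of high pan-leukocyte share and −0.014 without library 4, and H2-D1 became −0.23 with no filter. H2-K1 between BEneg and TEneg became −0.45 with scaling by total transcripts, −0.16 with no filter, −0.22 and −0.021 at a minimum of 1000 and 250 transcripts, −0.28 with means of cells, and between −0.073 and 0.16 without 1 library. No member was called between TEneg and TEpos in any of them. The count of 31 genes called there became 20 with no replicate block, 99 with no filter, 17 at a minimum of 1000 transcripts, 55 without wells of over 20000 transcripts and 19 without tumour wells of high pan-leukocyte share, and 19 to 42 without 1 library, lowest without library 1. Without the replicate block no member's call changed. DESeq2 called 23, with 21 higher and 2 lower. The 201 genes called between BEneg and TEneg became 461 with no filter and 111 at 1000 transcripts (53 higher, 58 lower), and 168 to 223 without 1 library. The 236 between BEneg and TEpos became 581 and 125, and 193 to 258. The 72 recomputed class levels stayed within 1 SD of the libraries or the counting interval, but the SD of BEneg class II (5.70) was larger than its mean. That mean went from 5.44 to 2.58 at 1000 transcripts and to between 3.29 (without library 3) and 7.12 (without library 2). Percentages of wells with class I or class II follow depth. Thinned to 500 transcripts, pooled over wells, class I went from 97.2% to 82.4% in TEpos and from 100% to 85.1% in TEneg, and class II from 42.3% to 12.1%, from 44.9% to 16.01% and, in BEneg, from 23.3% to 12.8%. Class I in BEneg was 100% at 1000 transcripts. Without 1 library, class I ran from 96.2% to 100% in TEpos and from 97.6% to 100% in BEneg, and class II in BEneg from 9.52% without library 1 to 30.95%.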

Other observations

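Wells under 500 transcripts were left out of the main comparisons of experiment (ii); those of at least 250 entered 1 alternative. In the 36 such BEneg wells, class I came to 88.5 per 10000 and class II to 4.05, in 12376 transcripts. The 25 TEpos and 27 TEneg wells held 61.8 and 43.3 per 10000 of class I, with 1 class II transcript each. The 4 BEpos wells held 3 class II transcripts among 1008.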
